A study of Homo sapiens with 12 samples.

Results

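The genes described here are 10 components of receptor tyrosine kinase signalling that are known as routes around EGFR inhibition: the receptors AXL, MET, FGFR1, FGFR2, FGFR3, FGFR4, EPHA2 and PDGFRB and the ligands GAS6 and FGF2. They were taken by symbol from the 62754 genes of the deposited table, and all 10 were found. The table came from polyadenylated RNA of PC9, a human lung adenocarcinoma line that depends on mutant EGFR. It held 12 libraries, 3 replicate cultures in each of 4 groups, all from one subclonal PC9 line. Cells with intact TDP1 were untreated (untreated WT), given 1 µM erlotinib, an inhibitor of the EGFR kinase, during 7 days (abbreviated DTC, the drug-tolerant group), or given that dose during 28 days (abbreviated DTEC, the expanded drug-tolerant group). The fourth group was an untreated TDP1 knockout (KO), represented by 1 knockout line named KO2, so the deletion and other properties of that line cannot be told apart. TDP1 is an enzyme that removes trapped topoisomerase I from DNA. Cultures of a group were split from a common flask and then grown apart, so p-values measure the spread between such cultures.

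Receptor tyrosine kinases span the plasma membrane, are activated when a ligand brings receptor molecules together, and pass the signal to the RAS-MAPK and PI3K pathways. EGFR is one of them. When EGFR is blocked, another receptor of the family can in principle feed the same pathways, and AXL, MET and the FGF receptors are the cases best known in EGFR-mutant lung cancer. Transcript level is only one of several controls on these receptors, which are also regulated by ligand supply, shedding and phosphorylation, none of which RNA counts measure.

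Total estimated counts per library ran from 25572691 to 38373679. All 10 epithelial markers exceeded 1 CPM (counts scaled to the TMM-adjusted library total) in every group, with a summed level of 6827 to 7852 CPM in DTC and 10105 to 12988 CPM in the other 3 groups. The largest differences were in KRT8 (1869 CPM in DTC, 4015 in untreated WT) and KRT18 (1184 and 2930 CPM). EPCAM, KRT19 and ESRP1 were also lower in DTC than in untreated WT, whereas CDH1, KRT7, CLDN4, ELF3 and MUC1 were higher. Of 8 fibroblast markers, COL1A1 alone exceeded 1 CPM, with a summed list level of 55.0 to 57.5 CPM in DTC and 7.82 to 14.8 CPM elsewhere, with PDPN at 0 counts and COL1A2, COL3A1 and DCN at no more than 2 in any library. LUM had 6, 18 and 19 counts in the DTC libraries and 0 in the other 9, and FAP had up to 6 counts in DTC and up to 2 elsewhere. The pericyte, leukocyte and endothelial lists had 2 of 6, 1 to 2 of 6 and 2 to 3 of 4 genes at 1 CPM or more. Their summed levels were 86.9 to 102 CPM in DTC against 183 to 398 CPM in the other groups, 38.9 to 55.3 against 26.0 to 41.6, and 41.9 to 49.5 against 58.5 to 142 CPM. NOTCH3 (88.7 CPM in DTC, 251 to 377 in the other groups) made up most of the pericyte sum and CD68 (27.5 to 46.4 CPM) of the leukocyte sum, and PECAM1 (8.77 to 92.1 CPM) and CDH5 (27.7 to 36.7 CPM) of the endothelial sum. PTPRC had at most 5 counts and CLDN5 had 0. The part of these marker shifts in the results was not tested. DTC replicate 1 stood apart from its group, with a mean chi-square statistic per gene of 116 and 72.1 against the other DTC libraries, which differed from each other by 17.1. Untreated WT replicate 1 (25.5 and 17.7, against 5.30 between the other pair) and DTEC replicate 3 (48.8 and 21.2, against 12.01) also stood apart, to a smaller degree. Among the 7 tested members, leaving out untreated WT replicate 1 ended the FGFR3 call in KO and turned the sign of the uncalled GAS6 value in DTEC, and leaving out DTEC replicate 3 ended the FGFR4 call between DTEC and DTC. TDP1 itself was at 10.8 ± 0.647 CPM (SD, n = 3) in KO and 26.3 ± 1.60 CPM in untreated WT. In bulk RNA, fewer cells carrying a transcript and less transcript per cell cannot be told apart.

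Of the 10 genes, 7 had enough counts to be tested and 3 did not. FGFR2, a receptor of epithelial FGF signals, had 1 count in a single DTC library and 0 in the other 11 libraries. FGF2, a secreted FGF that activates most FGF receptors, had 2 counts in that same library and 0 in the other 11. A count of 0 allows up to 3 counts, or 0.0824 to 0.115 CPM depending on the library, so neither gene was detectable above that level in any group. The gene NUDT6 overlaps exons of FGF2 on the opposite strand and held 116 to 253 counts. PDGFRB, a receptor for PDGF ligands best known from pericytes and fibroblasts, had 1 to 12 counts per library. Its mean level was 0.106 ± 0.0879 CPM for untreated WT, 0.198 ± 0.0965 for DTC, 0.129 ± 0.109 for DTEC and 0.236 ± 0.179 for KO, and the ranges of all groups overlapped.

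Levels of different genes were compared per kilobase of exon. In untreated WT, EPHA2 at 32.7 ± 3.86 CPM per kilobase and MET at 30.3 ± 1.03 were the highest of the 10, and their ranges overlapped. AXL followed at 10.3 ± 0.148, then GAS6 at 3.55 ± 0.555, FGFR4 at 2.76 ± 0.394, FGFR1 at 1.955 ± 0.233 and FGFR3 at 0.206 ± 0.0600. EGFR stood at 119.9 ± 5.88 CPM per kilobase in the same libraries. The length used for FGFR1, 13842 bases, is the union of all annotated exons and exceeds its longest transcript of 6216 bases, which lowers its value per kilobase.

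**Figure D1:**
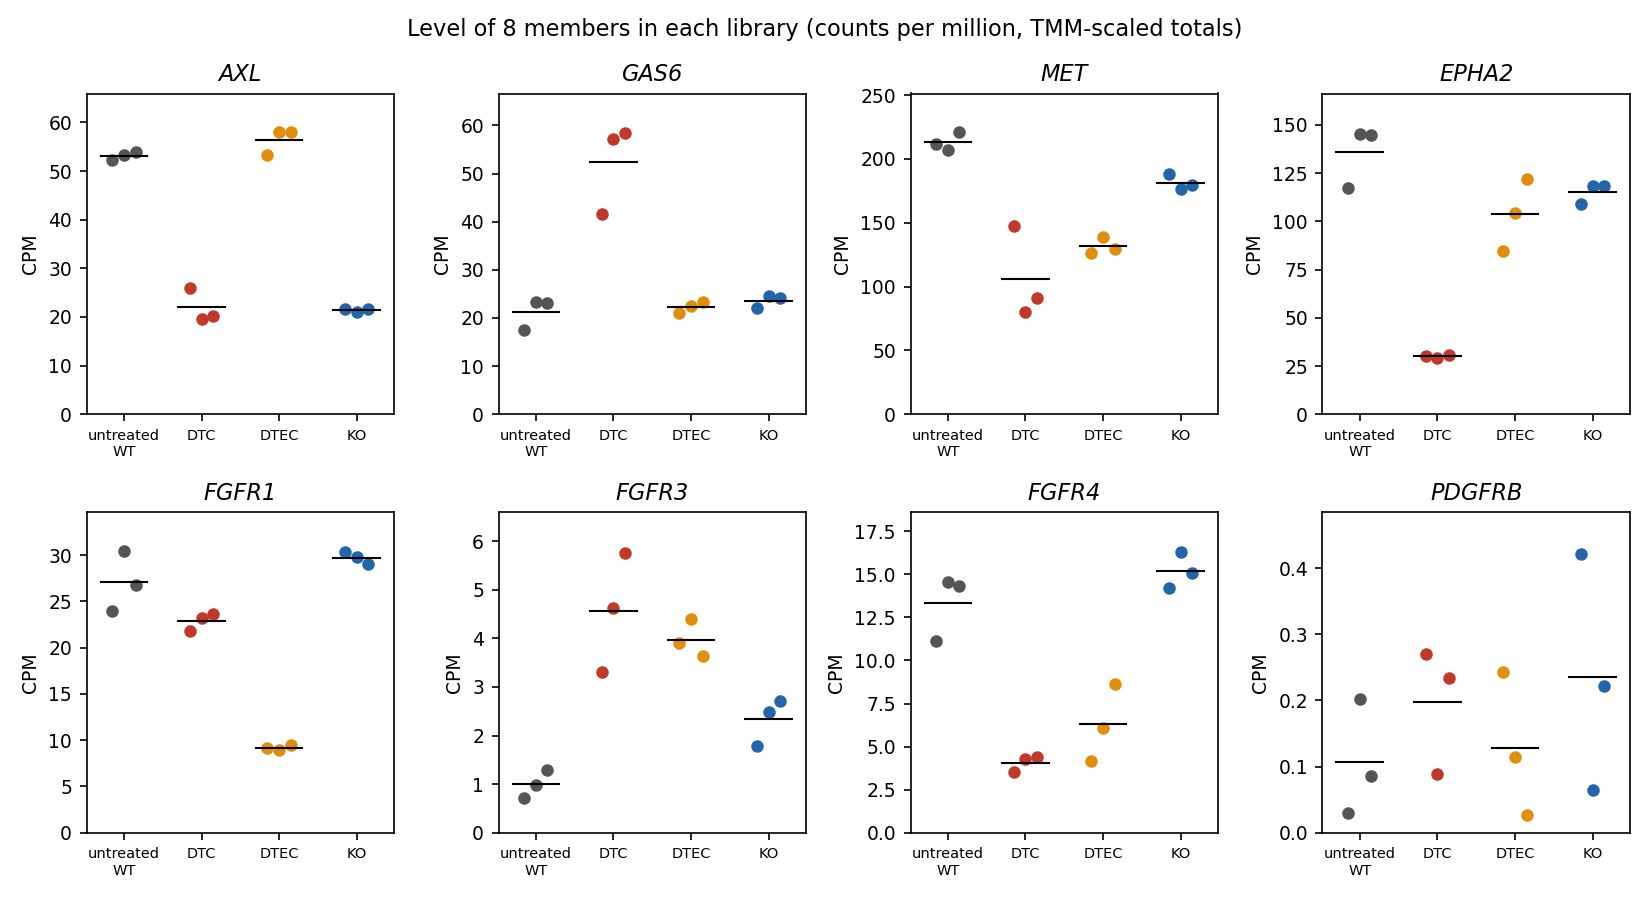
Level in CPM (y axis, linear, from 0) of 8 of the 10 genes in each of the 12 libraries, by group (x axis), with points for libraries and bars for group means. AXL is low in DTC and KO and not in DTEC, EPHA2 is low in DTC, and FGFR1 is low in DTEC.

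AXL (ENSG00000167601, chromosome 19, 41219203 to 41261766, GRCh38), the TAM-family receptor of GAS6, was at 52.3, 53.2 and 53.8 CPM in the untreated WT libraries. DTC libraries held 26.0, 19.7 and 20.3 CPM, and AXL was at 53.3, 58.02 and 57.9 CPM in DTEC and at 21.6, 21.0 and 21.6 CPM in KO. The DTC and KO libraries were therefore all below every untreated WT and DTEC library, whereas DTEC overlapped untreated WT, and DTC overlapped KO. In edgeR's quasi-likelihood test AXL fell 2.42-fold in DTC (log2 fold change -1.27, SE 0.108, adjusted p 1.28e-07) and 2.48-fold in KO (-1.31, SE 0.108, adjusted p 1e-05). From DTC to DTEC it rose 2.57-fold (1.36, SE 0.108, adjusted p 1.77e-07). DTEC was not called against untreated WT (0.09, adjusted p 0.509), with a 95% interval of -0.14 to 0.31. Of the 12 deposited AXL values, 8 carried decimals, which arise when reads are shared out among features. The antisense gene that overlaps AXL exons held 0 to 1 counts.

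GAS6 (ENSG00000183087, chromosome 13, 113820549 to 113864067, GRCh38), a vitamin K-dependent ligand of AXL and its relatives TYRO3 and MERTK, moved the other way in DTC. Its libraries held 17.5, 23.4 and 23.1 CPM in untreated WT and 41.7, 57.2 and 58.5 CPM in DTC, without overlap. In DTEC they held 21.0, 22.4 and 23.4 CPM and in KO 22.1, 24.5 and 24.2 CPM, both overlapping untreated WT. GAS6 rose 2.46-fold in DTC (log2 fold change 1.3, SE 0.142, edgeR adjusted p 1.63e-06), and its level in DTEC was 2.35-fold lower than in DTC (-1.24, SE 0.142, adjusted p 5.74e-06). It was not called in DTEC against untreated WT (0.06, 95% interval -0.24 to 0.37, adjusted p 0.726), where the sign turned to -0.04 without untreated WT replicate 1. Within the TAM group, PROS1, the second ligand, rose in DTC from 0.567 ± 0.0997 to 9.70 ± 1.92 CPM (4.09, adjusted p 4.12e-09), and TYRO3 fell from 46.0 ± 1.77 to 19.98 ± 4.34 CPM (-1.20, adjusted p 2.21e-06). MERTK was not called in DTC (-0.33, adjusted p 0.149), where its sign turned with library totals alone (0.03). At 7 days both ligands were higher, while AXL and TYRO3 were lower. In DTEC, TYRO3 (-0.94, adjusted p 4.66e-05) and MERTK (-0.97, adjusted p 0.000898) were lower than in untreated WT, while AXL was not called. GAS6-AS1, which overlaps GAS6 exons on the opposite strand, held 1 to 21 counts.

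The promoter windows of AXL, EPHA2 and GAS6 are shown because AXL and EPHA2 fell together at 7 days and returned toward the untreated level at 28 days, and GAS6 did the opposite. Each is the 250 bases before a RefSeq transcription start on GRCh38.p14, written 5′ to 3′ on the gene's own strand. Capitals mark matches on either strand to GGGCGG (SP1 and related), GGAATG (TEAD) or CCGGAA (ETS). AXL has one RefSeq start at chr19:41218973-41219222 (plus strand) and a second, internal one at chr19:41226505-41226754 (plus strand), EPHA2 has chr1:16156070-16156319 (minus strand) and GAS6 has chr13:113864077-113864326 (minus strand).
AXL first start: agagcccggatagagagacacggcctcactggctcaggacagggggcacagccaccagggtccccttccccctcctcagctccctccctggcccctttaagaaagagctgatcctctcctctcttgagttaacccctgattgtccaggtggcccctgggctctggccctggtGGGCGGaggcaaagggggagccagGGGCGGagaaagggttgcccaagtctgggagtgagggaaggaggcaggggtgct
AXL second start: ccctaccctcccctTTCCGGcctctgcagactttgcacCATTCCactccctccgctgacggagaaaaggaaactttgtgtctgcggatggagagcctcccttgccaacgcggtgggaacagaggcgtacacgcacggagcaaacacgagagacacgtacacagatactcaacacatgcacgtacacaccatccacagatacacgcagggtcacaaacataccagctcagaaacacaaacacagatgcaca
EPHA2: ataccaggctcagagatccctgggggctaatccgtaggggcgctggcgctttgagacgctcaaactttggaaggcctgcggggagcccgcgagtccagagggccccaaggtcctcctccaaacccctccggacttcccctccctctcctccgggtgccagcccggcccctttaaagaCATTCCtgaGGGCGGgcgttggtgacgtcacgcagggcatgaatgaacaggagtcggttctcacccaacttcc
GAS6: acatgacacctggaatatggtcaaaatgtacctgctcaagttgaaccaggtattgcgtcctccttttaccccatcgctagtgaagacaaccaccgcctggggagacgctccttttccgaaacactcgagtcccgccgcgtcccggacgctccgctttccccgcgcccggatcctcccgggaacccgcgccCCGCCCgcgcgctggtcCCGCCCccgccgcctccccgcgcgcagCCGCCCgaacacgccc
The first AXL window held 2 matches to GGGCGG, and the second held 1 to GGAATG and 1 to CCGGAA. The EPHA2 window held 1 match each to GGAATG and GGGCGG, 73 and 64 bases before the start. The GAS6 window held 3 to GGGCGG. Promoter windows were found for 9 of the 10 genes, 15 windows in all, of which 4 held GGAATG, 1 held CCGGAA and 10 held GGGCGG. Among 35116 RefSeq promoter windows of that length, 11.9% held GGAATG, 14.5% CCGGAA and 42.6% GGGCGG. The letters TGANTCA (AP-1) were in 0 of the 15 windows and in 6.57% of all, which says only that these letters are not in these windows. The motifs did not overlap one another in the printed sequences. No count in the table says which of the AXL starts was used.

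MET (ENSG00000105976, chromosome 7, 116672390 to 116798386, GRCh38), the receptor of hepatocyte growth factor, was lower at both time points. Untreated WT libraries held 212, 207 and 221 CPM, DTC libraries 147, 80.3 and 91.1 CPM, DTEC libraries 126, 139 and 130 CPM and KO libraries 188, 177 and 179 CPM. Every treated library was below every untreated one, KO lay between untreated WT and DTEC without overlapping either, and DTC and DTEC overlapped because DTC replicate 1 was above all DTEC libraries. MET fell 2.01-fold in DTC (log2 fold change -1.01, SE 0.168, edgeR adjusted p 0.000105) and 1.62-fold in DTEC (-0.70, SE 0.167, adjusted p 0.00294). DTEC and DTC were not called as different (0.31, 95% interval -0.05 to 0.67, adjusted p 0.131), but were without DTC replicate 1 (0.60, adjusted p 1.65e-05). In KO the value was -0.24 (95% interval -0.59 to 0.12, adjusted p 0.523), and it was called when untreated WT and KO were fitted alone (-0.21, adjusted p 0.0147). The MET ligand HGF had 0 counts in all 12 libraries, which allows up to 3 counts in each. SPINT1, a membrane inhibitor of the proteases that activate HGF, rose in DTC from 99.3 to 179 CPM (0.85, adjusted p 8.02e-06) and in DTEC to 192 CPM (0.95, adjusted p 6.57e-06). The related inhibitor SPINT2 was not called in DTC (-0.12, adjusted p 0.362) or DTEC (-0.04, adjusted p 0.784), with signs that turned under library totals or the upper quartile. The protease ST14 fell in DTEC (-0.81, adjusted p 4.64e-05), and its value in DTC (-0.30, adjusted p 0.029) kept its call in 4 of 13 alternatives.

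EPHA2 (ENSG00000142627, chromosome 1, 16124337 to 16156087, GRCh38), a receptor of ephrin-A ligands, showed the widest fall of the 7 tested genes in DTC. It was at 117, 145 and 145 CPM in untreated WT and at 30.3, 29.2 and 30.6 CPM in DTC, which was below every other library. DTEC libraries held 84.9, 105 and 122 CPM and KO libraries 109, 119 and 118 CPM, and both overlapped untreated WT. EPHA2 fell 4.53-fold in DTC (log2 fold change -2.18, SE 0.132, edgeR adjusted p 4.89e-09) and was 3.46-fold higher in DTEC than in DTC (1.79, SE 0.131, adjusted p 7.59e-08). Its call in DTEC against untreated WT (-0.39, SE 0.126, adjusted p 0.0184) was lost with library totals alone (0.163), with the upper quartile (0.0837), with those groups fitted alone (0.0668), and without untreated WT replicate 2 or 3 (both 0.102) or DTEC replicate 1 (0.135) or 2 (0.0719), and the adjusted p ran from 0.00398 to 0.163 over all alternatives. In KO the value was -0.24 (95% interval -0.51 to 0.03, adjusted p 0.37). Its ligand EFNA1 rose in DTC from 10.5 to 48.0 CPM (2.19, adjusted p 9.52e-09) and in DTEC to 28.2 CPM (1.42, adjusted p 1.68e-06). The other tested ephrin-A genes differed in DTC. EFNA4 rose (1.12, adjusted p 0.000161), EFNA5 fell from 47.5 to 30.9 CPM (-0.62, adjusted p 0.00169) and EFNA3 was not called (0.05, adjusted p 0.751). In DTEC EFNA3 (0.78, adjusted p 0.000173) and EFNA4 (0.74, adjusted p 0.00619) were higher, and EFNA5 was not called (0.22, adjusted p 0.208).

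The 3 tested FGF receptors did not move alike. FGFR1 (ENSG00000077782, chromosome 8, 38400215 to 38468834, GRCh38) is the family member best known from mesenchymal cells. Untreated WT libraries held 24.0, 30.4 and 26.8 CPM, DTC libraries 21.8, 23.2 and 23.6 CPM, DTEC libraries 9.14, 8.94 and 9.48 CPM and KO libraries 30.4, 29.8 and 29.002 CPM. The DTEC libraries were below all others, and the highest DTC library lay just under the lowest untreated WT library. FGFR1 fell 2.94-fold in DTEC (log2 fold change -1.56, SE 0.106, edgeR adjusted p 5.93e-08), and from DTC to DTEC 2.49-fold (-1.31, SE 0.105, adjusted p 1.92e-07). In DTC the value was -0.24 (adjusted p 0.0457), and that call held in 2 of 13 alternatives. The sign turned to 0.11 with library totals alone and 0.05 with the upper quartile, and the adjusted p was 0.315 and 0.125 without untreated WT replicate 2 or 3 and 0.146, 0.158 and 0.118 without DTC replicate 1, 2 or 3. In KO it was 0.14 (95% interval -0.08 to 0.35, adjusted p 0.552). LETM2, which overlaps FGFR1 exons on the opposite strand, held 10 to 54 counts.

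FGFR3 (ENSG00000068078, chromosome 4, 1793293 to 1808872, GRCh38) was the only receptor of the 6 tested that rose with drug, from a low level. Untreated WT libraries held 0.717, 0.978 and 1.298 CPM, DTC libraries 3.31, 4.62 and 5.75 CPM, DTEC libraries 3.90, 4.39 and 3.63 CPM and KO libraries 1.79, 2.49 and 2.71 CPM. Untreated WT was below KO, and KO below both treated groups, with no overlap, and DTC overlapped DTEC. These levels rest on 24 to 45 counts per untreated WT library and 98 to 196 per DTC library. FGFR3 rose 4.56-fold in DTC (log2 fold change 2.19, SE 0.267, edgeR adjusted p 5.04e-06) and 3.96-fold in DTEC (1.98, SE 0.268, adjusted p 2.83e-05), and DTEC and DTC were not called as different (-0.20, 95% interval -0.72 to 0.32, adjusted p 0.497). In KO it rose 2.33-fold (1.22, SE 0.271, adjusted p 0.0201). The KO call was lost without untreated WT replicate 1 (0.0932) or 2 (0.0616) or KO replicate 2 (0.0731) or 3 (0.0886), with values of 1.046 to 1.23, and the adjusted p ran from 0.000483 to 0.0932 over all alternatives.

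FGFR4 (ENSG00000160867, chromosome 5, 177086886 to 177098144, GRCh38), the FGF19 receptor of liver and other epithelia, was lower with drug at both times. Untreated WT libraries held 11.1, 14.5 and 14.3 CPM, DTC libraries 3.51, 4.30 and 4.40 CPM, DTEC libraries 4.14, 6.07 and 8.66 CPM and KO libraries 14.2, 16.3 and 15.1 CPM. All treated libraries were below all untreated ones, DTC overlapped DTEC, and KO overlapped untreated WT. FGFR4 fell 3.27-fold in DTC (log2 fold change -1.71, SE 0.215, edgeR adjusted p 6.95e-06) and 2.11-fold in DTEC (-1.08, SE 0.208, adjusted p 0.000607). The difference between DTEC and DTC (0.63, adjusted p 0.0239) was not called with library totals alone (0.102), with the upper quartile (0.0969), with those groups fitted alone (0.0827), or without DTC replicate 1 (0.0835) or 2 (0.0567) or DTEC replicate 2 (0.0526) or 3 (0.241, with a value of 0.28), and the adjusted p ran from 0.00124 to 0.241 over all alternatives. In KO the value was 0.19 (95% interval -0.24 to 0.62, adjusted p 0.699). FGF19, its best-known ligand, fell in DTC from 0.749 to 0.172 CPM (-2.09, adjusted p 0.000258) and rose in DTEC to 2.56 CPM (1.76, adjusted p 0.000306). The DTC level of FGF19 rests on 4, 8 and 5 counts. The co-receptor gene KLB did not pass the filter, with at most 3.72 estimated counts in a library.

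**Figure D2:**
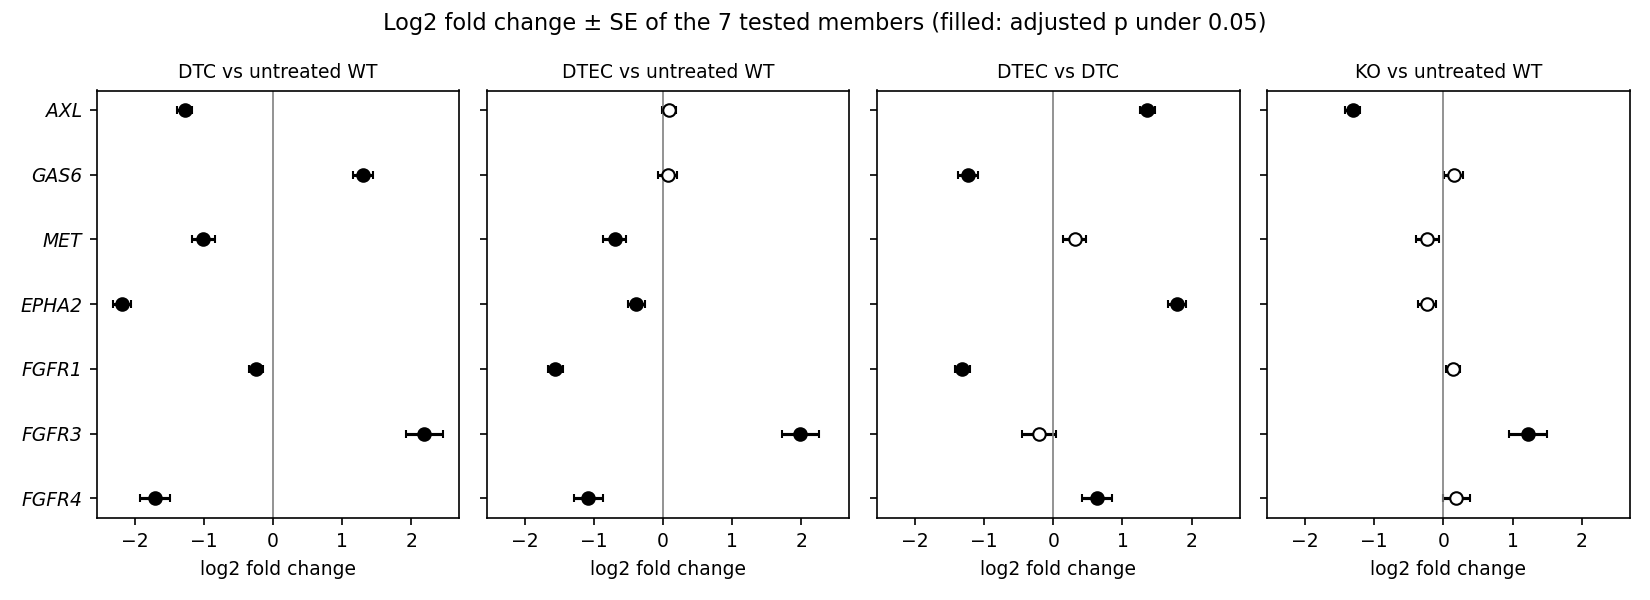
Log2 fold change (x axis) with its standard error for the 7 tested genes (y axis) in the 4 comparisons, with filled points at an adjusted p under 0.05. EPHA2 at -2.18 and FGFR3 at 2.19 lie farthest from 0 in DTC, and AXL at -1.31 and FGFR3 at 1.22 are the filled points in KO.

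In DTC, 5 of the 7 tested genes were called lower and 2 higher, where 67.3% of all 17115 genes tested were called, 33.3% lower and 34% higher. At 2-fold, 4 were lower and 2 higher, against a background of 13.9% and 22.3%. With library totals alone or the upper quartile 2 were lower at 2-fold, since AXL (-0.92 and -0.99) and MET (-0.65 and -0.73) then missed it. With RLE or DESeq2 scaling, or the compared groups fitted alone, 3 were. Leaving out untreated WT replicate 1 or 3 or DTC replicate 2 or 3 also gave 3. The median log2 fold change of the 7 was -1.01, beside 0.06 over all genes. In DTEC, 4 were called lower and 1 higher, where 52.3% of all genes were called, 26.3% lower and 26% higher, and the median was -0.39 beside 0.02. At 2-fold, 2 were lower and 1 higher, where 19.9% of all genes passed, 6.7% lower and 13.2% higher. With library totals alone or the upper quartile, or without DTEC replicate 1 or untreated WT replicate 2, 1 was lower. In the direct comparison of DTEC with DTC, 3 were higher and 2 lower, with a background of 55.4%, 28.8% higher and 26.6% lower. At 2-fold, 2 were higher and 2 lower, against 8.1% and 14.3% of all genes. In KO, AXL was lower and FGFR3 higher, where 4.31% of all genes were called, 1.55% lower and 2.76% higher. The FGFR3 call was lost without KO replicate 2 or 3 or untreated WT replicate 1 or 2. AXL and FGFR3 both also passed 2-fold, as did 0.339% of all genes lower and 0.964% higher. The comparisons with untreated WT share those 3 libraries. With library totals alone the median of all genes moved by 0.35 in DTC, 0.17 in DTEC and -0.19 in DTEC against DTC, and with the upper quartile by 0.29, 0.11 and -0.17, so directions are relative to the TMM scaling. The percent of all calls that were higher went from 50.5% to 68.4% with totals alone in DTC (65.0% with the upper quartile), from 49.7% to 63.7% in DTEC, from 51.9% to 37.4% in DTEC against DTC (38.7%) and from 64.1% to 78.8% in KO. With library totals alone or the upper quartile FGFR1 in DTC changed its sign, and no other of the 7 genes did in any comparison.

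The rest of the receptor family gives the setting. Of 58 human receptor tyrosine kinases, 34 were tested. Among the 28 that are not members, 11 were called higher and 12 lower in DTC, 10 and 6 in DTEC, and 13 and 8 in DTEC against DTC. These are 82.1%, 57.1% and 75% of the 28, beside 67.3%, 52.3% and 55.4% of all genes. Their median log2 fold changes were 0.27, 0.31 and 0.15. In DTC, ROS1 rose (edgeR adjusted p 3.16e-07) from 0, 1 and 3 counts in the untreated WT libraries, at or under the 3-count floor, to 87, 75 and 72 counts, or 2.42 ± 0.453 CPM. No fold is given for it, as the fitted log2 value ran from 5.23 without untreated WT replicate 1 to 6.95 without replicate 3. CSF1R, the receptor of a macrophage growth factor, rose from 0.384 ± 0.212 to 9.57 ± 1.61 CPM (log2 fold change 4.61, edgeR adjusted p 1.32e-08). ROR1, a Wnt-binding receptor, fell from 77.7 ± 4.05 to 14.0 ± 4.79 CPM (-2.47, adjusted p 3.82e-08). In DTEC, ERBB3, the neuregulin receptor that pairs with EGFR family members, rose from 72.4 ± 4.28 to 275 ± 3.59 CPM (1.93, adjusted p 1.24e-08), CSF1R was at 1.66 ± 0.226 CPM (2.09, adjusted p 8.97e-05), and EPHB6 (-1.16, adjusted p 1.51e-05) and ROR1 (-1.15, adjusted p 8.31e-05) fell. From DTC to DTEC, IGF1R (1.4) and ROR1 (1.32) rose and ROS1 (-3.42) and CSF1R (-2.52) fell, with adjusted p from 1.79e-06 to 2.99e-05. The DTEC level of ROS1 rests on 7 counts in each library. In KO, 5 of the 28 (17.9%, beside 4.31% of all genes) were called higher and 0 lower by edgeR, led by INSR (1.12, adjusted p 0.000319) and EPHB3 (1.11, adjusted p 0.00944). The EPHB3 call was lost in 2 of 13 alternatives.

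**Figure D3:**
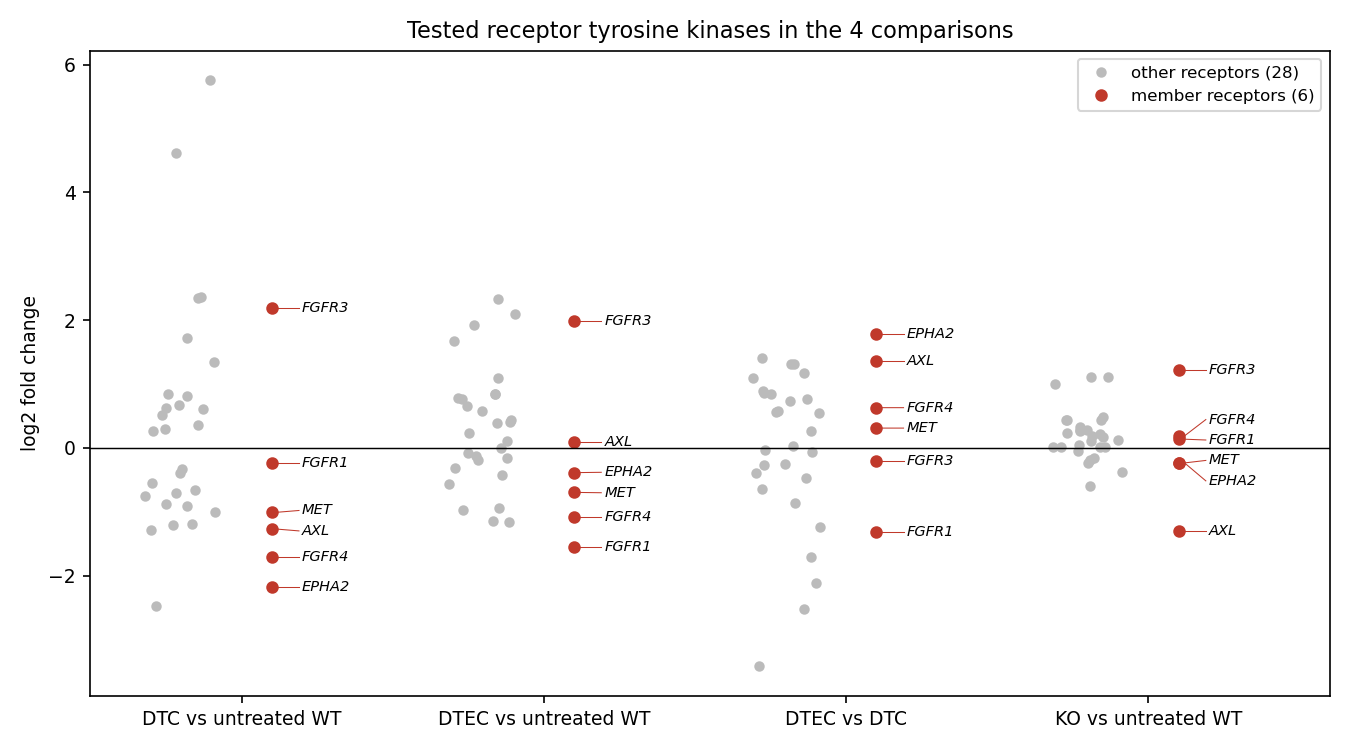
Log2 fold change (y axis) of the 34 tested receptor tyrosine kinases in the 4 comparisons (x axis), with 28 other receptors in grey and the 6 tested member receptors in red. In DTC 5 of the 6 red points lie below 0, FGFR1 only under TMM, RLE and DESeq2 scaling, and in KO AXL at -1.31 is the lowest point of all.

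The weight of each receptor within the family was expressed as its share of counts per kilobase summed over the 58 receptors, which needs no scaling between libraries. The 8 member receptors together made up 22.1% ± 0.294 (SD, n = 3) of the untreated WT sum, 13.7% ± 0.242 of the DTC sum, 17.5% ± 1.54 of the DTEC sum and 19.04% ± 0.208 of the KO sum, with no overlap between untreated WT and any other group. EGFR made up 33.8% ± 0.218, 21.9% ± 4.23, 24.8% ± 3.42 and 27.7% ± 1.02 in the same order and ranked highest in each group. AXL made up 2.91% ± 0.128, 1.96% ± 0.0646, 3.33% ± 0.108 and 1.25% ± 0.0211, so no 2 groups overlapped on this measure. EPHA2 ranked next to EGFR in untreated WT on average, at 9.20% ± 0.600, though MET at 9.08% was above EPHA2 at 8.50% in replicate 1 and their ranges overlapped. EPHA2 made up 3.36% ± 0.482 in DTC. MET made up 8.58% ± 0.519 in untreated WT, 6.79% ± 1.12 in DTC and 5.69% ± 0.193 in DTEC. On this measure DTC replicate 1, at 8.08%, overlapped the untreated WT libraries, the lowest of which was at 8.04%. In DTC the place after EGFR was taken by DDR1, a collagen receptor, at 15.9%, against 6.30% in untreated WT. The fall in the share of EGFR in DTC was smaller in DTC replicate 1, at 26.8%, than in the other DTC libraries at 19.4% and 19.6%.

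**Figure D4:**
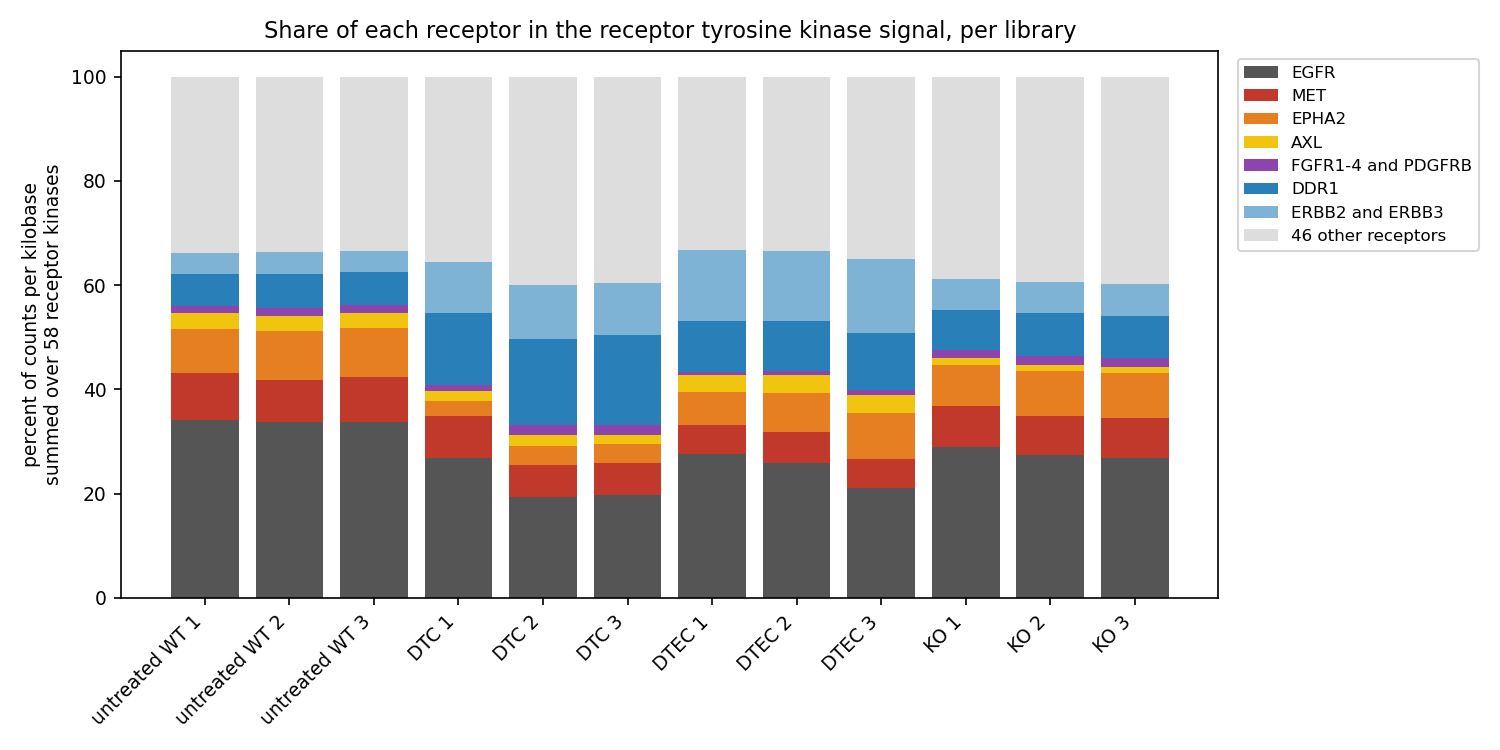
Stacked bars of the percent of counts per kilobase (y axis, 0 to 100) that each receptor or receptor group contributes to the sum over 58 receptor tyrosine kinases in each of the 12 libraries (x axis). The EGFR part shrinks from 33.8% in untreated WT to 21.9% in DTC on average, and the EPHA2 part from 9.20% to 3.36%.

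Genes of the ligand families of the same receptor groups were followed through a list of 36 further genes, of which 18 were tested. The list was drawn by family. It includes FGF11, FGF12, FGF13 and FGF14, intracellular members of the FGF family that are not classed as secreted receptor ligands. Of the 18 tested genes of the list, 9 were called higher and 6 lower in DTC, 10 and 4 in DTEC, 8 and 5 in DTEC against DTC, and 0 in KO by edgeR. These are 83.3%, 77.8%, 72.2% and 0% of the 18, beside 67.3%, 52.3%, 55.4% and 4.31% of all genes. Their median log2 fold changes were 0.33, 0.76, 0.10 and 0.09. PROS1 and PDGFB rose furthest in DTC, PDGFB from 24.0 ± 3.57 to 152 ± 12.1 CPM (log2 fold change 2.66, edgeR adjusted p 2.74e-10), although its receptor PDGFRB was near the counting floor. EFNB1, an ephrin-B ligand, fell from 47.9 ± 9.65 to 20.3 ± 2.79 CPM (-1.24, adjusted p 6.74e-06) and FGF13 from 2.54 to 0.766 CPM (-1.72, adjusted p 2.84e-05). In DTEC, PROS1 (2.62, adjusted p 9.4e-07) and FGF19 were higher, and EFNB2 (-1.40, adjusted p 1.36e-06) and EFNB1 (-0.83, adjusted p 0.000452) were lower. FGF1, a ligand of all FGF receptors, rose in DTC from 0.751 ± 0.112 to 4.75 ± 0.578 CPM (2.65, adjusted p 4.12e-06). In DTEC it was below untreated WT (-2.21, adjusted p 0.000483), at 0.168 ± 0.107 CPM, which rests on 6, 7 and 2 counts. From DTC to DTEC, FGF1 fell (-4.86, adjusted p 1.77e-07) and PROS1 fell by 1.47, while FGF19 (3.86) and FGF13 (1.13) rose. The FGF19 level in DTC rests on 4, 8 and 5 counts. Of the 21 FGF genes on this list, 6 were tested.

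Co-receptors, docking proteins and other regulators formed a list of 39 genes, of which 34 were tested. In DTC 8 were called higher and 16 lower, in DTEC 10 and 10, in DTEC against DTC 14 and 7, and in KO 0 and 1, with medians of -0.27, 0.05, 0.18 and -0.01. The called shares were 70.6%, 58.8%, 61.8% and 2.94%, near the 67.3%, 52.3%, 55.4% and 4.31% of all genes. The ubiquitin ligase CBLB, which marks receptors for degradation, rose in DTC from 15.9 ± 0.418 to 73.3 ± 17.5 CPM (log2 fold change 2.20, edgeR adjusted p 7.99e-09), and the docking protein GAB2 from 18.3 ± 0.423 to 71.5 ± 5.499 CPM (1.97, adjusted p 7.56e-10). The related ligase CBL fell from 85.5 to 38.8 CPM (-1.14, adjusted p 0.000326). SULF2, which removes sulphate groups from heparan sulphate, fell from 1114 ± 56.4 to 282 ± 40.2 CPM (-1.98, adjusted p 3.22e-09), and FGFBP3 fell by 3.05 from 1.99 CPM. The DTC level of FGFBP3 rests on 8, 8 and 7 counts. In DTEC the docking protein GAB1 (1.41, adjusted p 5.07e-06) and FGFBP1 (1.82, adjusted p 0.000544) rose and the heparan sulphate carriers SDC1 (-2.15, adjusted p 7.03e-09) and GPC1 (-1.52, adjusted p 1.03e-05) fell. From DTC to DTEC, SULF2 (2.42) and GRB10 (1.53) rose and GAB2 (-1.18) and CBLB (-1.03) fell. The single KO call, GAB2 (-0.36, adjusted p 0.0493), was lost in 10 of 13 alternatives.

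The genes with the profile most like each tested member were found by the root mean square difference in log2 CPM over the 12 libraries, each gene centred on its own mean, among 13060 genes with a mean of 1 CPM or more. These are descriptions over libraries that fall into 4 groups. For AXL the nearest gene was TDP1, at 0.191, with mean levels of 26.3, 14.0, 26.6 and 10.8 CPM in the order untreated WT, DTC, DTEC, KO, where the KO level of TDP1 is that of the edited gene. LINC01819 followed at 0.206. For GAS6 they were PCBP4 (0.12) and CCNL2 (0.138), for MET RAPGEF6 (0.0645) and ERI1 (0.0856), and for EPHA2 NLE1 (0.117) and HMGA1 (0.136). For FGFR1 they were ADAMTS15 (0.166) and COL4A2 (0.178), for FGFR3 TLE2 (0.259) and PLA2G2F (0.263), and for FGFR4 DDX54 (0.0958) and HSD11B2 (0.141).

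**Figure D5:**
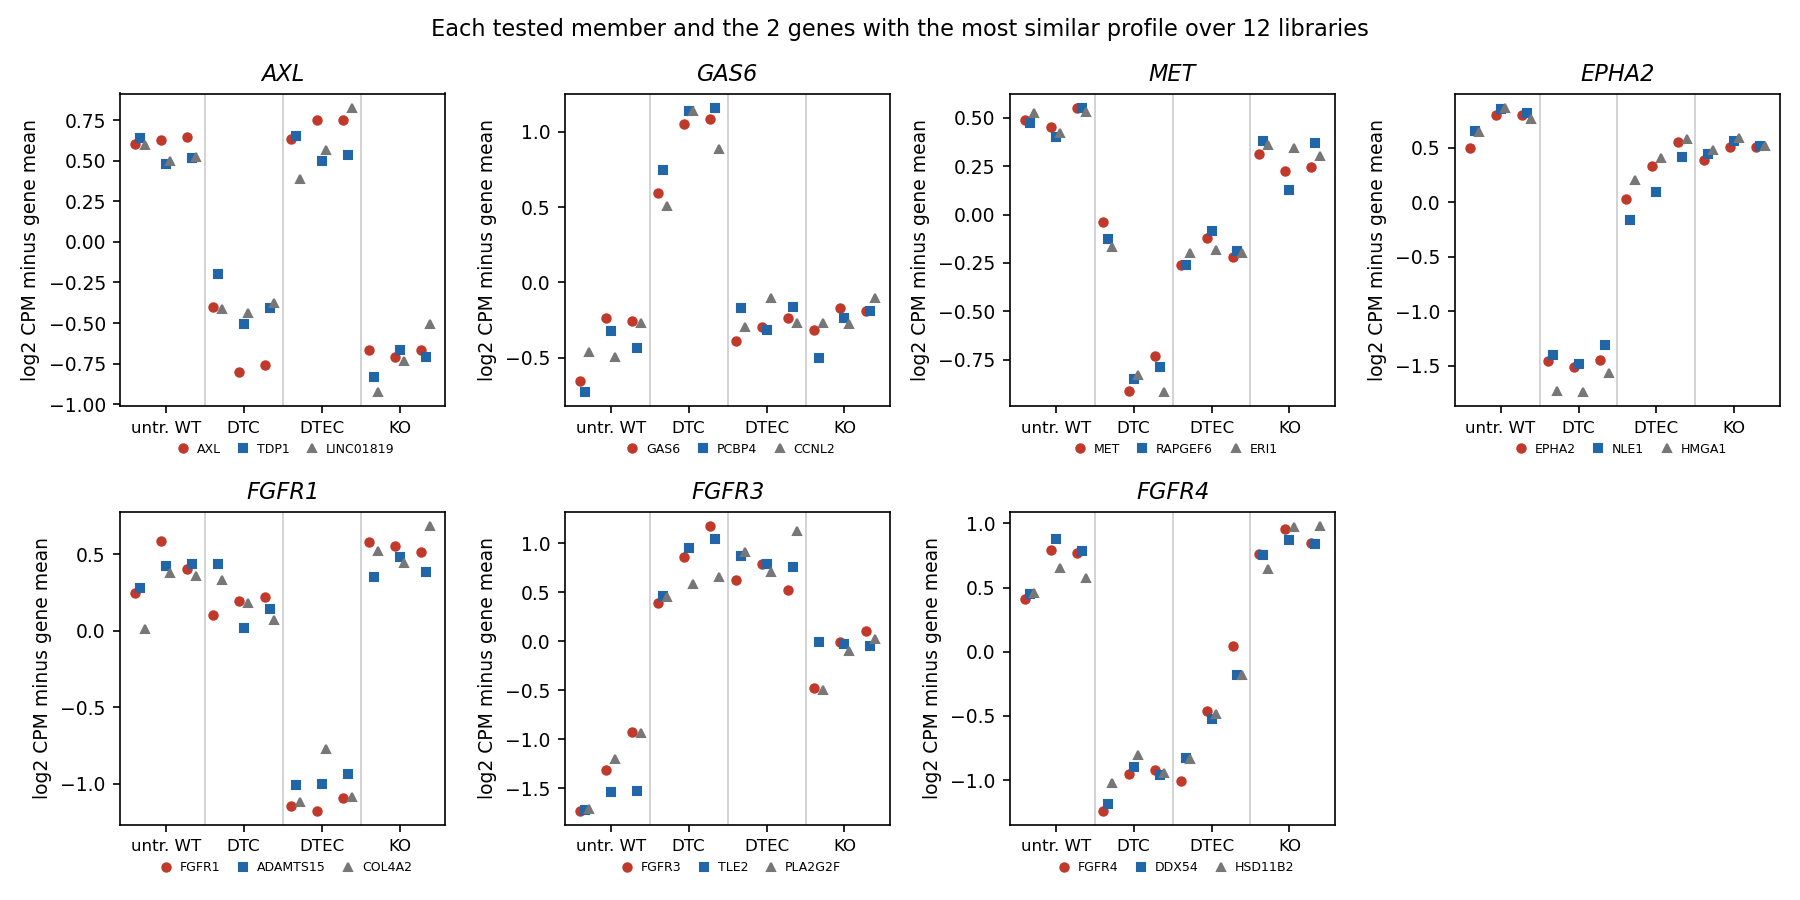
Log2 CPM minus the gene's mean (y axis) in the 12 libraries, by group (x axis), for each of the 7 tested genes in red and the 2 genes nearest to it in blue and grey. AXL, TDP1 and LINC01819 are low in DTC and KO, with AXL below both in DTC replicates 2 and 3.

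How far DTC replicate 1 sets the DTC values can be read by leaving it out. It lay nearer to untreated WT than the other DTC libraries for AXL, GAS6, MET and FGFR3, but not for EPHA2, FGFR1 or FGFR4. Without it the DTC log2 fold changes were -1.37 for AXL, 1.48 for GAS6, -1.28 for MET, -2.15 for EPHA2, 2.41 for FGFR3 and -1.58 for FGFR4, all still called by edgeR, and -0.17 for FGFR1, which was not.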

How the data were processed

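The authors deposited 1 table of estimated read counts (expected counts) per Ensembl gene for 12 libraries. The submitters' processing notes name RSEM 1.3.1, Bowtie2 2.5.2, DESeq2 1.40.2 and the build GRCh38. Libraries were made with a stranded kit for polyadenylated RNA, per the labels' protocols. The annotation release, strand setting and filters are not given in the sources used here. All libraries carry the label of 1 batch.

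Values were rounded to whole counts and fitted in R 4.3.3 with edgeR 4.0.16. The fit used TMM scaling, filterByExpr by group (17115 genes kept, 99.9% of counts or more), 1 mean per group, robust dispersions and quasi-likelihood F tests, with Benjamini-Hochberg adjustment over all genes tested and calls at an adjusted p under 0.05. SE is the absolute log2 fold change divided by the square root of F, and 95% intervals use the t quantile at the fit's degrees of freedom for the gene. The intervals take in the spread between replicate cultures as well as counting error. Floors of 3 counts cover counting error only, and reads carried no molecular identifiers. Symbols were found for 62700 of 62754 identifiers, coordinates and exon lengths come from GENCODE 29, and promoters from RefSeq. Replicates were checked for duplication, and the script was tested on simulated data.

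The members and lists were chosen with earlier results of these data known. Named beyond the members were the 2 genes called higher and the 2 called lower with the largest change per list and comparison at 1 CPM or more, and the 2 nearest profiles per member, taken among genes with a mean of 1 CPM or more. EGFR, the drug target, was left out of the ranking by change and is given separately. Receptor partners outside that rule (MERTK, HGF, SPINT1, SPINT2, ST14, EFNA1, EFNA3, EFNA4, EFNA5, CBL, KLB, DDR1, FRS2, FRS3, GRB2, SHC1, SOS1, PTPN11, FGF1 against untreated WT, FGF19 and GAB1 in DTC and TYRO3 in DTEC) were picked after their values were seen. Alternatives were other scalings (RLE, library totals, upper quartile), no count filter, DESeq2 1.42.0, compared groups fitted alone, a replicate block, and leaving out each library. Replicate numbers were not used as pairs in the main fit, because the pairing check was not met.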

Additional observations from a re-analysis of the deposited data

Results flagged for a closer look

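In 5 of the 7 tested members the change after 28 days differed from the change after 7 days, both against the same untreated WT libraries, as tested directly by the contrast of DTEC with DTC in edgeR, in which 55.4% of all 17115 genes were called. The difference on the log2 scale was 1.36 for AXL, 1.79 for EPHA2 and 0.63 for FGFR4, whose level was lower at 7 days than at 28. It was -1.24 for GAS6 and -1.31 for FGFR1, whose level was lower at 28 days than at 7. The FGFR4 difference was not called in 7 of 13 alternatives, with its smallest value (0.28, adjusted p 0.241) without DTEC replicate 3.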

How the results depend on the processing

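Across 13 alternatives per comparison, the members called numbered within 1.5 times of the reported count in DTC, DTEC and DTEC against DTC. In KO the count went from 2 to 1 when single libraries were left out (range 1 to 2). Of 1274 recomputed fold changes of members, EGFR, TDP1, named list genes and partners, 16 changed sign. The 1274 values did not include EFNA3, EFNA4, EFNA5, CBL, GRB2, SHC1, SOS1 or FRS3. They also lacked TYRO3 in DTEC and FGF1 against untreated WT. Whether the signs of those genes depend on the processing was not tested. With library totals alone the changes of sign were FGFR1 (0.11), MERTK (0.0297), SPINT2 (0.24) and ST14 (0.0499) in DTC and SPINT2 in DTEC (0.13). With the upper quartile they were FGFR1 (0.046) and SPINT2 (0.17) in DTC and SPINT2 in DTEC (0.075). With single libraries left out, the values that crossed 0 ran from -0.15 to 0.033 for SPINT2 and -0.057 to 0.312 for FRS2 in DTC, and in DTEC from -0.042 to 0.147 for GAS6, -0.099 to 0.021 for SPINT2, -0.021 to 0.092 for HS2ST1 and -0.034 to 0.182 for FRS2. A call was lost in 54 and gained in 6. The number of genes called in KO was 738, 1147 with no count filter, 2656 with the 2 groups fitted alone, 1148 with DESeq2, and 321 to 426 with any 1 of the 6 libraries left out. The cause of these differences was not tested.

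Shares of receptor signal moved with the length used. With counts not scaled by length, EGFR made up 46.8%, 31.0%, 34.2% and 39.0% in untreated WT, DTC, DTEC and KO, the 8 member receptors together 13.9%, 9.81%, 10.5% and 12.3%, and AXL 1.66%, 1.14%, 1.90% and 0.723%. With longest transcripts, chosen after seeing the data, EGFR made up 32.5% in untreated WT and 25.9% in KO, the 8 together 18.4%, 10.7%, 13.4% and 15.7%, and AXL 2.39%, 1.46%, 2.56% and 0.995%.

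Same-numbered libraries did not meet the pairing check, in which every correlation had to pass 0.1, which does not exclude pairing. Correlations of their deviations from the group means were 0.0603 to 0.179 for DTC, 0.00168 to 0.0975 for DTEC, -0.013 to 0.139 for DTEC against DTC and 0.0378 to 0.0629 for KO, each with untreated WT unless stated. In KO against untreated WT all 6 libraries correlated best with their own number. Of 6 libraries, 4 did so in DTC, 3 in DTEC and 4 in DTEC against DTC. With a replicate block 11775, 9255, 9732 and 887 genes were called, and 7, 5, 5 and 2 members, and no member's call changed. Depth limits FGFR3, FGFR2, FGF2 and PDGFRB most.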

Other observations

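Heparan sulphate is the co-receptor that holds FGF ligands on their receptors, and several genes that carry or modify it were called in DTC or DTEC. These genes were singled out after their values were seen. In DTC the sulphotransferase gene HS6ST2 fell from 263 to 71.1 CPM (log2 fold change -1.89, edgeR adjusted p 1.77e-08) and SDC1 from 387 to 137 CPM (-1.50, adjusted p 3.51e-08), while SDC4 rose from 163 to 226 CPM (0.47, adjusted p 0.000494). SDC4 was not called in DTEC (0.08, adjusted p 0.488) except with library totals alone. HS2ST1 was at -0.52 in DTC (adjusted p 0.00211, a call lost with library totals alone or the upper quartile) and was not called in DTEC (0.02, adjusted p 0.905), and SULF1 was not tested. In DTEC, SULF2 was above untreated WT (0.44, adjusted p 0.00432), and HS6ST2 remained below it (-0.55, adjusted p 0.00219). FGFRL1, an FGF receptor that lacks the kinase domain, fell in DTC (-1.10, adjusted p 8.88e-06) and in DTEC (-1.29, adjusted p 4.61e-06).

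Docking and adaptor genes differed among themselves, and those given here were, apart from GAB2, singled out after their values were seen. Of the adaptors, GRB2 was lower in DTC (-0.43, edgeR adjusted p 0.000645), and SHC1, SOS1 and FRS3 were not called there. GAB1 and GAB2 rose in DTC (for GAB1 1.011, adjusted p 5.3e-05), whereas FRS2, the docking protein of FGF receptors, was not called in DTC (0.12, adjusted p 0.506) or DTEC (0.07, adjusted p 0.741) by edgeR, though it was higher in DTC with library totals alone (0.48, adjusted p 0.0164) or the upper quartile (0.41, adjusted p 0.0287). The phosphatase PTPN11 fell in DTC (-1.20, adjusted p 6.92e-06) and DTEC (-0.57, adjusted p 0.00567).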
